A study of Drosophila melanogaster with 4 samples.

Results

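The regions described here are pairs of H3K4me1 peaks that stand on either side of a short valley, a stretch outside both peaks, in larvae of Drosophila melanogaster. Peaks on the 5 large chromosome arms 2L, 2R, 3L, 3R and X were joined to their neighbour when the stretch between them was 1000 bp or shorter. A joined region was kept when it held exactly 2 peaks and both were under 5000 bp wide. This gave 1221 pairs among the 5426 joined regions of these arms, or 22.5%. The 2442 flanks, as the peaks of a pair are called here, made up 17.4% of the 14009 peaks on the large arms, and the whole list held 14326 peaks. A further 113 regions of 2 peaks were left out because a peak was 5000 bp or wider. The rule fixed the number of peaks, the longest valley and the widest flank from the list itself, so these are descriptions and carry no test.

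H3K4me1 is histone H3 with a single methyl group on lysine 4. It marks the nucleosomes around enhancers, active as well as poised, and the shoulders of active promoters. At both kinds of element the DNA bound by transcription factors or by the transcription machinery is often depleted of nucleosomes, and at active promoters the nucleosomes nearest the start tend to carry the trimethylated form instead, so that the monomethyl mark commonly appears as shoulders around a dip.

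Chromatin immunoprecipitation followed by sequencing was applied to wandering third-instar larvae of the strain Y cn bw sp, with 2 H3K4me1 ChIP samples and 2 input DNA samples. Both groups had the same genotype, given as y[1] and oc[R3.2], then Gr22b[1], Gr22d[1] and cn[1] with CG33964[R4.2], bw[1] and sp[1], then LysC[1], lab[R4.2] and MstProx[1] together with GstD5[1] and Rh6[1], and the sex of the larvae is given as unknown. Whole larvae were grown at 25 C and fixed in 1.8% formaldehyde for 15 min, so any signal is a mixture over tissues, and the antibody was an affinity-purified rabbit polyclonal. The data are 1 list of peaks for the series, with a start, an end and a score per peak. It holds no value per sample, so neither the depth of the libraries nor the spread between replicates can be given. Intervals below are 95% exact binomial intervals of a share, or order-statistic intervals of a median. They treat pairs as independent and cover counting error only. The list gives no signal inside a valley, so a dip within a single domain and a gap between separate domains cannot be told apart.

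Short valleys were more frequent than long ones. Their median was 374 bp (95% interval 355 to 403), the quartiles were 181 and 642 bp, and they ran from 51 to 1000 bp. The most filled 50 bp class was the lowest one, from 51 to 100 bp, with 13.3% of the pairs. Of all pairs, 62.98% had a valley of 500 bp or shorter, and the 100 bp class next to the upper limit held 57 pairs. No valley was shorter than 51 bp, which was also the smallest gap between any neighbouring peaks of the large arms. Inside joined regions of 3 or more peaks, the gaps between neighbours that were both under 5000 bp wide had a median of 307 bp (95% interval 297 to 317, n = 6389). In those with exactly 3 peaks the median gap was 345 bp (95% interval 320 to 361), in those with 4 it was 322.5 bp, and in those with 5 or more it was 293 bp. The median of the pairs was higher than each of these medians, but its interval overlapped that of the 3-peak regions. This difference has no test, and the gap limit that bounds both groups also decides how many peaks a region holds.

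**Figure D1:**
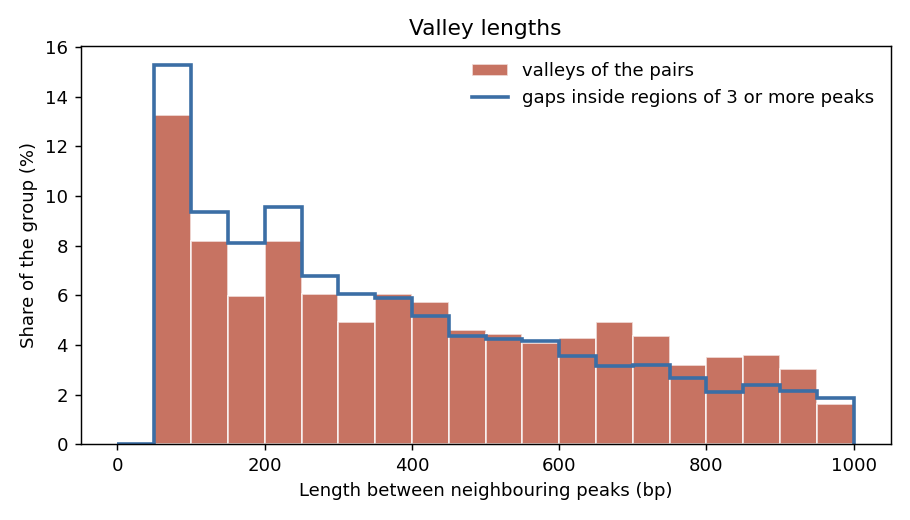
Share of valleys (vertical axis, percent of the group) by length in classes of 50 bp (horizontal axis, bp) for the pairs (bars, n = 1221) and for gaps inside joined regions of 3 or more peaks (line, n = 6389). Both start at 51 bp and are fullest from 51 to 100 bp, where 13.3% of the pairs' valleys and 15.3% of the other gaps lie.

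The shortest valleys ran to 51 bp and belonged to 2 pairs. In the first, on 3L, the left flank spanned 4040966 to 4041435 with a score of 19.36 and the right flank 4041487 to 4041687 with a score of 12.33. In the second, on 3R, flanks at 7834054 to 7834904 and 7834956 to 7835906 had scores of 17.55 and 69.81. The widths were 470 and 201 bp in the first and 851 and 951 bp in the second. Another, on 2L, had a valley of 52 bp between 2421173 to 2422160 and 2422213 to 2422450. All positions are in FlyBase release 5 coordinates and counted from 1, and the gene content of these places was not analysed here.

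At the upper end, the pair on 2L with flanks at 11129130 to 11130043 and 11131044 to 11132025 had a valley of exactly 1000 bp, flanks of 914 and 982 bp, and scores of 52.29 and 44.75. Valleys of 997 bp (2L, 18621114 to 18622911) and 996 bp (3R, 26137994 to 26139773) came next. Just outside the limit, single peaks lay 1004 bp apart at 3R, 19075639 to 19078405, 1006 bp apart at X, 14474832 to 14478301, and 1007 bp apart at 3R, 11819597 to 11821255. The 3 pairs just inside had widths of 289 to 982 bp and scores of 8.9 to 52.29, against widths of 268 to 2098 bp and scores of 9.56 to 141.61 for the neighbours just outside.

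A typical pair was small. From the outer edge of its left flank to that of its right flank it spanned a median of 2204 bp (95% interval 2115 to 2306), with quartiles of 1427 and 3517 bp. The valley took a median of 15.98% of that span. It was longer than the narrower flank in 435 pairs (35.6%) and longer than the wider flank in 129 (10.6%). The midpoints of the flanks were a median of 1346 bp apart. Together the flanks covered 2706 kb and the valleys 509 kb.

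Taken singly, the flanks were set beside lone peaks under 5000 bp wide. The median width of the flanks was 712.5 bp (95% interval 669 to 766) and their median score was 29.45 (95% interval 27.76 to 30.96). Peaks of the same width limit that stood alone had a median width of 670.5 bp (95% interval 624 to 717, n = 2072) and a median score of 26.7 (95% interval 25.3 to 28.4). The intervals of the pairs' flanks and of the lone peaks overlapped for both measures. The score is the peak caller's own, as deposited, and its scale is not stated. It was used for ranks and differences within the list and not for ratios.

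The flanks of a pair were seldom alike in width. The ratio of the narrower to the wider flank had a median of 0.50 (95% interval 0.47 to 0.51), with quartiles of 0.28 and 0.71. No peak on the large arms was narrower than 200 bp, and 27 peaks of the pairs had that width. This floor and the limit of 5000 bp bound the ratio, most of all where both flanks are narrow. By construction the wider flank is the larger value, and its median width was 1216 bp, against 426 bp for the narrower flank. The ratio was 0.75 or more in 266 pairs (21.8%) and under 0.25 in 259 pairs (21.2%), so that near-equal and strongly unequal pairs were about equally frequent. Other neighbouring peaks under 5000 bp wide had similar shares. Inside regions of 3 or more peaks they were 21.0% and 21.4%. For a flank and the next peak outside its pair they were 19.6% and 24.6%. A flank of 1000 bp or wider stood beside a flank under 500 bp in 270 pairs (22.1%). In 236 pairs (19.3%) both flanks were 1000 bp or wider, and in 194 (15.9%) both were under 500 bp. Across the 1221 pairs the widths of the left and right flanks had a Spearman correlation of 0.18.

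**Figure D2:**
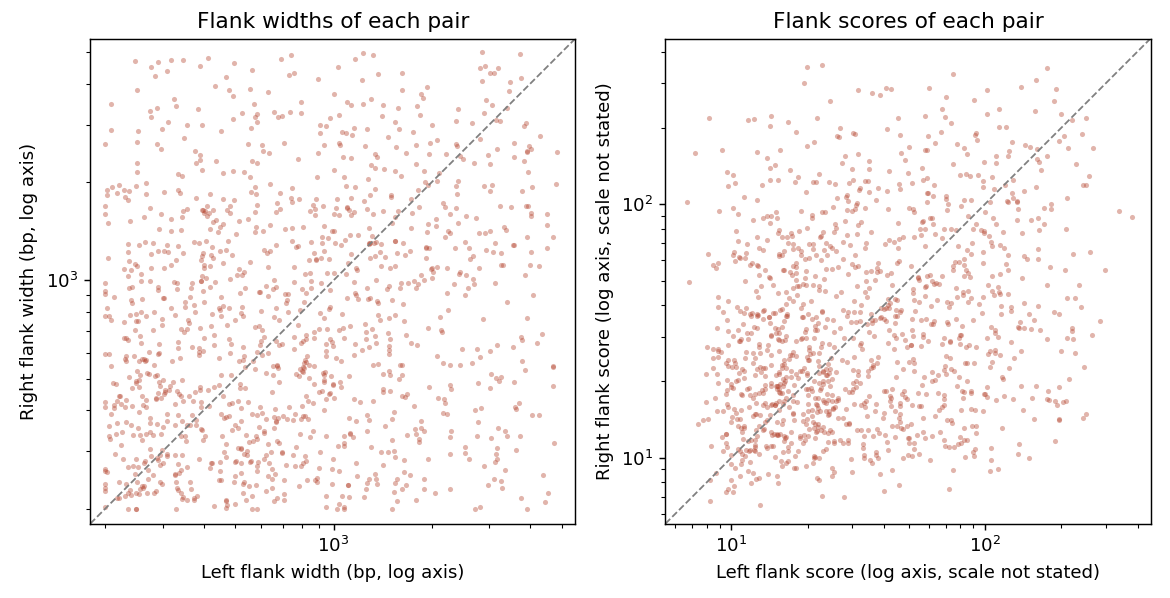
Width in bp (left panel) and score (right panel) of the right flank against the left flank, both on log axes, 1 point per pair (n = 1221), with a dashed line where both are equal. Points scatter widely about the line in both panels, with Spearman correlations of 0.18 for width and 0.26 for score.

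Neither side was favoured over the whole set. The left flank, the one at the lower coordinate, was the wider in 612 pairs (50.1%, 95% interval 47.3 to 52.97) and had the higher score in 622 (50.9%, 95% interval 48.1 to 53.8). By arm, the left flank was the wider in 59.2% of pairs on 2R (95% interval 52.7 to 65.4) and in 44.7% of pairs on 3R (95% interval 38.8 to 50.7). The share was 50.95% on X, 50.4% on 3L, and 46.0% on 2L. The interval for 2R lay above 50%, and those for the other arms included it. The arms were compared after their values were seen and have no test.

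The scores of the flanks also differed within most pairs. The median difference between the higher and the lower score was 23.56 (95% interval 21.56 to 26.13), and its quartiles were 7.88 and 58.18. It ran from 0 to 330.37. The median of the higher score was 51.3 and that of the lower 18.3. In ranks among all peaks of the large arms, the flanks were a median of 23.0 percentile points apart. They were within 10 points of each other in 307 pairs (25.1%) and more than 50 points apart in 174 (14.3%). Left and right scores had a Spearman correlation of 0.26 across the pairs.

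Set against the median score of all peaks on the large arms, 33.11, the pairs fell into 3 kinds. In 488 pairs (39.97%) a single flank reached it, in 421 (34.5%) neither did, and in 312 (25.6%) both did. For a flank and the next peak outside its pair, these shares were 44.1%, 34.5% and 21.4%. For neighbours inside regions of 3 or more peaks they were 38.6%, 31.3% and 30.1%. The share with both at or over the median score was lower in pairs (interval 23.1 to 28.1) than in these neighbours (29.0 to 31.2). Those intervals did not overlap. It was higher than for a flank and the next peak outside (19.7 to 23.3), with a narrow overlap. For the other kinds the intervals of the pairs overlapped those of both groups, and no test was made. Pairs with both flanks at or over the median score had a median valley of 479 bp, flanks of 1189 and 2199.5 bp (medians of the narrower and the wider) and a median width ratio of 0.62. Pairs with a single such flank had a median valley of 357.5 bp, flanks of 406.5 and 1545 bp and a ratio of 0.28. Pairs with neither had a median valley of 323 bp, flanks of 290 and 542 bp and a ratio of 0.60. The lowest ratio belonged to the pairs with a flank on each side of the median score, which by that definition differ in score. Score and width came from the same peak caller and were related within each side, with Spearman correlations of 0.87 for left and for right flanks.

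The wider flank also had the higher score in 992 of the 1221 pairs (81.2%, 95% interval 78.9 to 83.4). By arm the share ran between 78.8% (2L) and 84.5% (2R). In 228 pairs the wider flank had the lower score, and in 1 pair the scores were equal. The 228 pairs had flanks closer in width, with a median ratio of 0.71, against 0.43 in the 992. They were also closer in score, with a median difference of 11.1, against 28.4 in the 992.

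**Figure D3:**
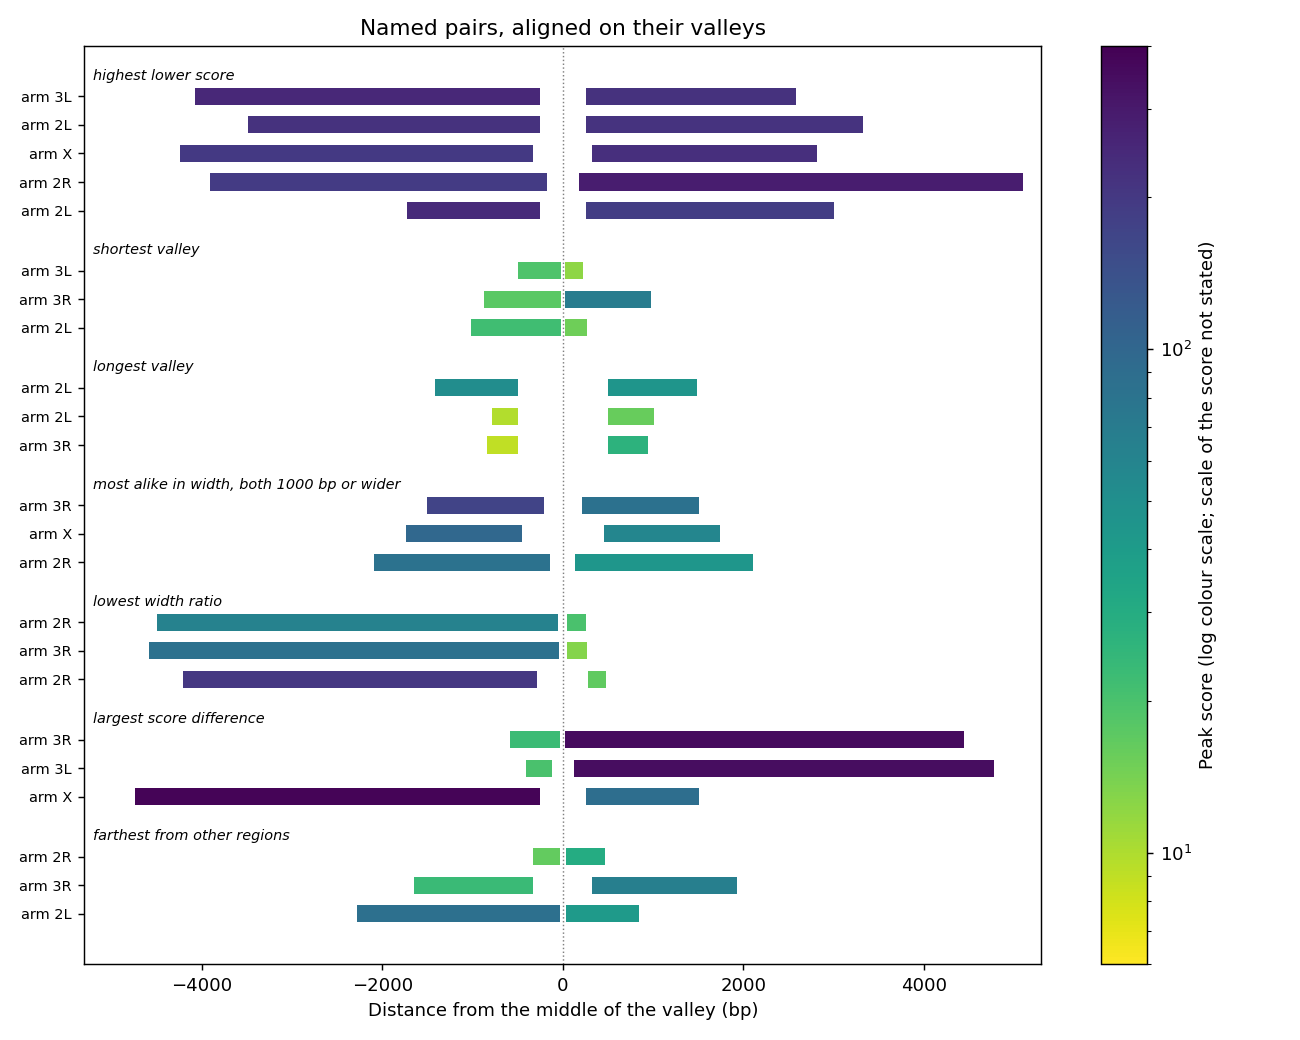
Flanks of 23 named pairs, 1 pair per row, as bars to scale along the distance from the middle of the valley in bp (horizontal axis), coloured by score on a log colour scale and grouped by the rule that named them. The 5 pairs with the highest lower score have flanks of 1468 bp or wider on both sides, while the 3 pairs with the lowest width ratio have a flank of 200 to 224 bp beside one of 3924 to 4544 bp.

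The pairs in which both flanks scored highest, ranked by their lower score, were wide on both sides. The first was on 3L, with flanks at 9388395 to 9392212 (score 250.55) and 9392728 to 9395054 (score 218.23) around a valley of 515 bp. The second, on 2L, was the most even of the 5. Its flanks at 5982681 to 5985918 and 5986428 to 5989499 were 3238 and 3072 bp wide, with scores of 220.51 and 215.49. They were followed by X, 19532973 to 19540025 (scores 200.05 and 226.44), and 2R, 15329975 to 15338981 (scores 191.61 and 284.95). The last of the 5 was 2L, 6069169 to 6073891 (scores 241.95 and 188.7). The valleys of these 5 pairs measured 356 to 655 bp, and 3 of them, on 3L and 2L, measured 509 to 515 bp. The nearest other region was 1030 to 2771 bp away in each case.

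Near-equal width did not always bring near-equal score. Among pairs with both flanks of 1000 bp or wider, the 3 most alike in width had ratios of 0.99 or more. On 3R, at 3825711 to 3828719, the flanks were 1296 and 1298 bp wide, with scores of 171.67 and 83.31. On X, at 5929850 to 5933338, they were 1287 and 1290 bp wide, with scores of 98.42 and 58.4. On 2R, at 5125392 to 5129586, they were 1953 and 1964 bp wide, with scores of 82.18 and 43.75. In all 3 the left flank had the higher score.

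At the other extreme a small peak stood beside a long one. On 2R, at 7268020 to 7272771, a left flank of 4440 bp and a right flank of 210 bp lay on either side of a valley of 102 bp, with scores of 62.08 and 20.14. On 3R, at 658919 to 663777, the flanks were 4544 and 224 bp wide, and on 2R, at 6445677 to 6450364, 3924 and 200 bp. In these 3 pairs the small flank was on the right and had a score of 13.12 to 20.14. The largest score difference, 330.37, was on 3R at 7022369 to 7027399, where a left flank of 561 bp scored 22.71 and a right flank of 4417 bp scored 353.08 across a valley of 53 bp. Differences of 327.88 on 3L (8048254 to 8053440) and 291.77 on X (17517171 to 17523421) followed. The X pair held the highest score of any flank, 381.12.

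Regions just inside and just outside the width limit were set side by side. The widest flank inside it was the right flank of 4994 bp of the pair at 2L, 2193806 to 2202114, with a score of 236.98. Just outside, a left peak of 5001 bp with a score of 220.65 stood beside a peak of 759 bp at 3R, 24426354 to 24432966. The 113 regions left out by the limit had a median valley of 351 bp (95% interval 263 to 441), close to that of the pairs. Their narrower peak had a median of 1147 bp and their wider peak one of 7026 bp, with a median width ratio of 0.15 that follows from the limit.

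Flanks were narrowest and lowest-scoring beside the shortest of 4 classes of valley. Pairs with a valley of 250 bp or shorter (n = 435) had a median narrower flank of 384 bp and a median wider flank of 1064 bp, with median lower and higher scores of 16.4 and 43.2. Pairs with a valley over 500 and up to 750 bp (n = 269) had medians of 529 and 1514 bp and of 22.2 and 69.0. Pairs with the longest valleys, over 750 bp (n = 183), lay between, with 487 and 1169 bp and with 20.9 and 50.0. The Spearman correlation of valley length was 0.18 with the narrower width, 0.11 with the wider width, 0.17 with the lower score and 0.11 with the higher score. The median width ratio was 0.45 in pairs with a valley of 250 bp or shorter and 0.50 to 0.53 in the 3 classes of longer valleys. The class of shortest valleys also had the least even flanks. This was not particular to pairs. Among all neighbouring peaks under 5000 bp wide, the pairs included, the median ratio was 0.46 at gaps of 250 bp or shorter. It was 0.49 to 0.50 in the longer classes up to 1000 bp, and 0.46 again over 1000 and up to 2000 bp. Their median narrower width was 415 bp in the shortest class and 484.5 to 553 bp in the longer classes up to 1000 bp.

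Flanks of a pair were then set beside flanks and the next peak outside the pair, again with both under 5000 bp wide. These 2043 couples were separated by a median of 5356 bp. The median width ratio was 0.50 (95% interval 0.47 to 0.51) between the flanks of a pair, against 0.45 (95% interval 0.43 to 0.46) in those couples. The Spearman correlation was 0.18 for width and 0.26 for score within pairs, against 0.08 and 0.13 in those couples. With a gap limit of 500 bp in place of 1000 bp, the median ratio was 0.46 within pairs and 0.47 with the next peak outside, so the order of the medians was not kept. The median score difference was 23.56 within pairs and 23.06 with the next peak outside (95% interval 20.77 to 25.16). Ranks more than 50 percentile points apart were found in 14.3% of pairs (95% interval 12.3 to 16.3) and in 19.1% of the couples reaching outside (95% interval 17.4 to 20.9). Ranks within 10 points were about as frequent, with 25.1% of pairs and 24.4% of the couples reaching outside. Among neighbours inside regions of 3 or more peaks, 13.3% were more than 50 points apart and 26.4% were within 10. The wider peak had the higher score in 81.2% of pairs and in 82.6% of the couples reaching outside. No test was made, since couples that share a flank are not independent.

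Likeness in width was compared on both sides of the limit of 1000 bp. In the 4 valley classes of the pairs the Spearman correlation of width was 0.09 to 0.24. Flanks and outside peaks that were over 1000 and up to 2000 bp apart had a value of 0.23 (n = 541), within that range. It was 0.10 from over 2000 up to 5000 bp (n = 436) and -0.016 beyond 5000 bp (n = 1066). For score the values ran from 0.14 to 0.31 in the valley classes of the pairs and were 0.29, 0.14 and 0.03 at these 3 longer distances. All pairs together had a median width ratio of 0.50 and correlations of 0.18 for width and 0.26 for score, against 0.48 (95% interval 0.47 to 0.49), 0.20 and 0.32 for neighbours inside regions of 3 or more peaks.

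**Figure D4:**
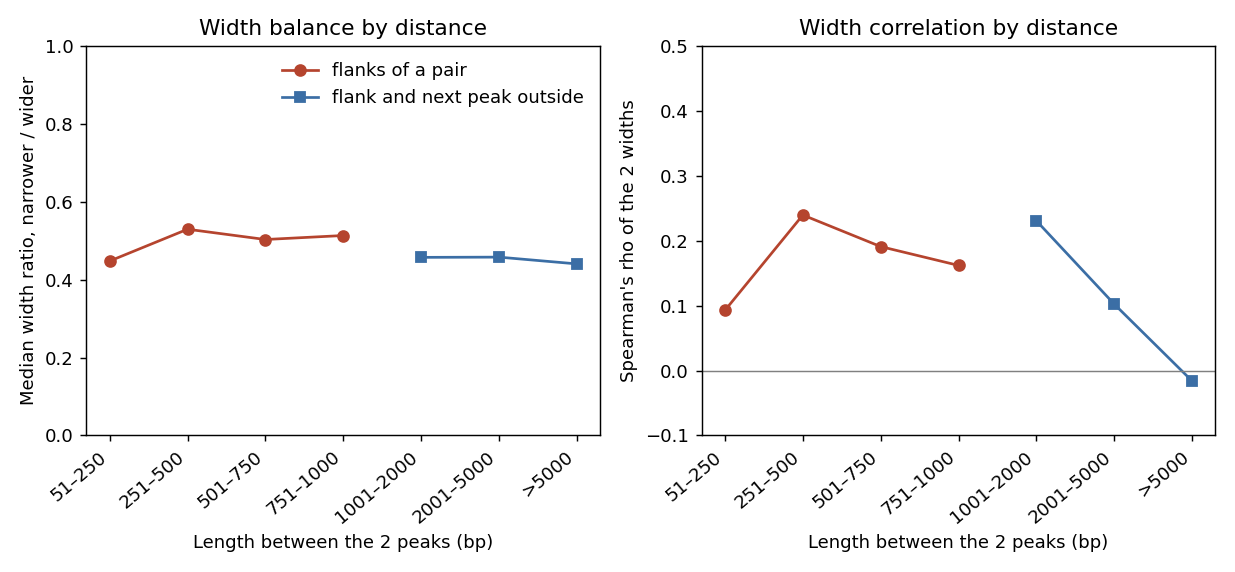
Median ratio of the narrower to the wider width (left panel) and Spearman correlation of the 2 widths (right panel) by the length between neighbouring peaks in bp, for the flanks of a pair (circles) and for a flank and the next peak outside (squares). The ratio stays between 0.44 and 0.53 over all distances, and the correlation is highest at 0.24 for valleys over 250 and up to 500 bp and -0.016 beyond 5000 bp.

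The spacing of the pairs was measured to the nearest other joined region on either side. The median distance to the nearest other joined region was 2221 bp (95% interval 2055 to 2477), with quartiles of 1298 and 5268 bp; distances over 1000 bp follow from the rule. It was within 2000 bp for 563 pairs (46.1%) and over 10000 bp for 139 (11.4%), and it exceeded 50000 bp for 12 (0.98%). Other regions lay within 2000 bp on both sides for 76 pairs (6.22%). That last share was 6.73% for regions of 1 peak and 7.08% for regions of 3 or more peaks. In the same order, distances over 10000 bp had shares of 11.9% and 9.87%, and those over 50000 bp 1.53% and 0.72%. Joined regions of 1 peak had a median of 2003 bp (95% interval 1844 to 2102, n = 2156), and those of 3 or more peaks 2238.5 bp (95% interval 2106 to 2376, n = 1936). The median of the pairs lay between these, and its interval overlapped both.

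**Figure D5:**
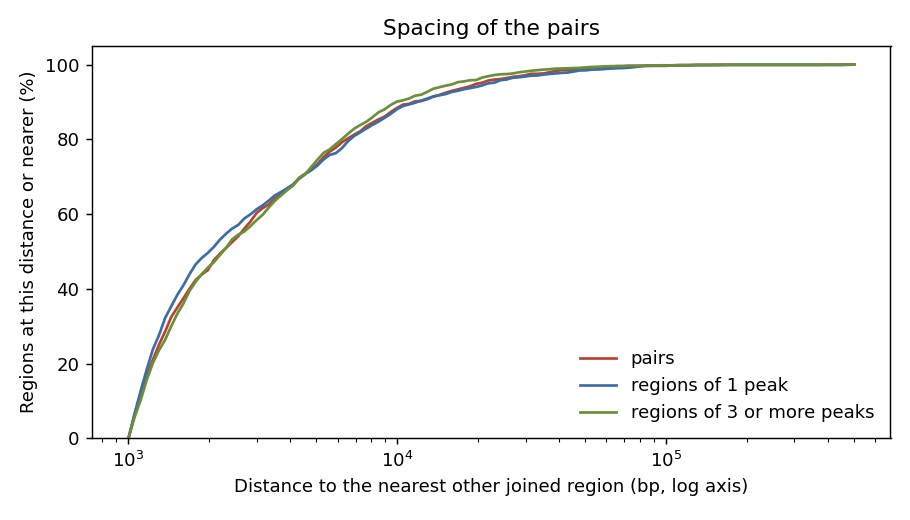
Cumulative share of regions (vertical axis, percent) with another joined region at the given distance or nearer (horizontal axis, bp, log scale), for the pairs, for regions of 1 peak and for regions of 3 or more peaks. At 2000 bp the shares are 46.1%, 49.9% and 46.3%, and the curves start just over 1000 bp by the joining rule.

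The kinds of region next to the pairs had shares close to those in the whole set of joined regions. The nearest other region was a single peak for 467 pairs (38.2%), a region of 3 or more peaks for 453 (37.1%), another pair for 277 (22.7%) and a left-out region of 2 peaks for 24 (1.97%). Among all joined regions the shares were 39.7% single peaks, 35.7% regions of 3 or more peaks, 22.5% pairs and 2.08% left-out regions of 2 peaks. It held a peak of 5000 bp or wider for 12.1% of pairs (95% interval 10.3 to 14.1), against 12.0% of all joined regions that held such a peak. The wider flank faced the nearer side in 671 of 1220 pairs (55.0%, 95% interval 52.2 to 57.8), and the higher-scoring flank did so in 671 of 1219 (55.0%, 95% interval 52.2 to 57.9). Both intervals lay above 50%, but no test was made and no such share for other regions is given here. The 2 shares are not separate results, since the wider flank had the higher score in 81.2% of pairs. With the nearest region within 2000 bp the wider flank faced it in 313 of 563 pairs (55.6%, 95% interval 51.4 to 59.7), and with it over 10000 bp away in 74 of 138 (53.6%, 95% interval 44.9 to 62.1). For the higher-scoring flank these were 317 of 563 (56.3%, 95% interval 52.1 to 60.4) and 78 of 138 (56.5%, 95% interval 47.8 to 64.9).

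Distance to the nearest region varied little with the pairs' own measures. Its Spearman correlation was 0.09 with valley length and -0.058 with the higher score. The distances on the left and on the right, with medians of 5003 and 5788 bp, had a correlation of -0.0078. Pairs with both flanks at or over the median score had another region within 2000 bp in 45.5% of cases, pairs with a single such flank in 47.95% and pairs with none in 44.4%.

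The 3 most remote pairs had flank scores between 16.41 and 85.95. The farthest, on 2R with flanks at 18953 to 19249 and 19318 to 19754, held the first peaks of the arm, and the next region lay 464412 bp to the right. Its scores were 16.41 and 30.11. The second, on 3R at 19360790 to 19364363, had no other region for 149410 bp to the left and 128377 bp to the right, with scores of 23.29 and 66.06. The third, on 2L at 15499612 to 15502735, had free stretches of 110678 and 108216 bp and scores of 85.95 and 41.02. Whether reads could be placed throughout these stretches was not tested.

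All 5 arms held pairs in similar proportion. The highest share of an arm's joined regions was 23.1%, on 2L (95% interval 20.5 to 25.9), and the lowest was 21.9%, on 3R (95% interval 19.6 to 24.2). Between the first and last peak of an arm, 2R had the most pairs per Mb, 11.6, and X the fewest, 9.37. Median valleys ran from 363 bp on 3R to 399.5 bp on 3L, and median width ratios from 0.46 on 3L to 0.52 on 2L, again with overlapping intervals. The median distance to the nearest region was 1770.5 bp on X (95% interval 1572 to 2143) and 2622 bp on 3L (95% interval 2204 to 3339), and these intervals did not overlap. On X 54.8% of pairs had another region within 2000 bp (95% interval 47.8 to 61.6), against 41.1% on 3L (95% interval 35.0 to 47.4). The arms were picked as the extremes of 5 after their values were seen. The same distances for other joined regions of these arms are not given here.

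Every complete bin of 1 Mb contained pairs. The 114 bins held a median of 10 pairs and between 2 and 20. The fewest, 2, were at 2R, 1 to 1000000, where there were 7 joined regions in all, and the most, 20, at 2R, 8000001 to 9000000, among 71 joined regions. Bins with few pairs were not always those with the fewest regions. For example, X, 2000001 to 3000000, had 3 pairs among 39 joined regions, and 2L, 15000001 to 16000000, had 11 among 26. The longest series of consecutive joined regions that were all pairs counted 5 and lay on 3L, 16675771 to 16723759, a place singled out after its values were seen. Its 5 valleys measured 387, 261, 277, 128 and 113 bp from left to right. The first 3 of its pairs had width ratios of 0.78 to 0.88, and the last pair of the series had 0.39 after 0.25 in the pair before it. Their scores ran from 10.83 to 107.79.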

How the data were processed

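The authors deposited 1 peak list that covers all samples, 2 H3K4me1 ChIP and 2 input. It was made with MACS on FlyBase release 5, per the file headers. BDGP5, BWA, MACS2 and CASAVA (versions 1.7.0.2 and 1.7.0.3) stand in the submitters' processing notes. How the caller was set and how ChIP and input libraries entered it is not stated in what was used here. The score of each peak is used as the authors deposited it, on a scale that is not stated. Starts were read as counted from 0, since 2 peaks start at 0. Widths are end minus start, and valleys are the next start minus the previous end. The 317 peaks on chromosome 4 and scaffolds were not used.

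Joining, medians and shares were computed with Python 3.11.15, pandas 2.3.3 and scipy 1.17.1. Joining, pairing, valleys, width ratios and the interval of a median were tested on simulated data with known answers. Shares, distances between regions and correlations were not tested in this way. Comparisons are descriptions, because 1 list gives no spread between samples. The pairs, measures and naming rules were chosen with earlier results of these data known. Named are the 5 pairs with the highest lower score, 3 each with the shortest and longest valleys, the most and least alike widths, the largest score differences and the farthest neighbours, and those next to the limits. The most alike widths were taken among pairs with both flanks of 1000 bp or wider. Alternatives were gap limits of 500 and 1500 bp, a width limit of 3000 bp, leaving out the lowest 25% of scores, and leaving out each arm. Comparisons with genes were not made here.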

Additional observations from a re-analysis of the deposited data

How the results depend on the processing

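Of 72 alternative values for 8 results, 55 stayed within the interval of the reported value, or within 1.5 times it for the number of pairs, and 17 did not. No paired analysis was possible because no value of the list belongs to a sample, and no replicate could be left out. Those for a flank and the next peak outside were added after seeing the data. The number of pairs was 950 (gap limit of 1500 bp) to 1671 (gap limit of 500 bp) over the changed limits and the cut on score, against 1221. It was 939 to 1011 with an arm, and thus its pairs, left out. Leaving out each arm in turn, which keeps most of the same peaks, moved none of the 8 results. All 17 moved values came from the other gap limits, the width limit of 3000 bp and the cut on score. A gap limit of 500 bp gave a median valley of 218 bp, a width ratio of 0.46 within pairs and 0.47 with the next peak outside, and a distance of 936 bp to the nearest region. A limit of 1500 bp gave a valley of 477.5 bp and a distance of 4018 bp. Valleys and distances follow the limit by construction. A width limit of 3000 bp gave width ratios of 0.52 within pairs and 0.49 with the next peak outside, and score differences of 18.54 and 18.15. Without the lowest 25% of scores the valley was 407 bp, the distance 2725.5 bp, the width ratios 0.52 and 0.49, the score differences 30.39 and 29.56, and the wider flank had the higher score in 76.5% of pairs. Fewer peaks then remain to be joined, and the cause of these changes was not tested. The limits set by depth cannot be given without read counts.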
